A study of Mus musculus with 4 samples.

Results

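Carbonic anhydrases are zinc enzymes that interconvert carbon dioxide and bicarbonate, releasing or taking up a proton. Members of the family differ mainly in where they work: in the cytosol, in mitochondria, on the outer face of the cell membrane, or outside the cell after secretion. In bone the cytosolic enzyme Car2 is best known from osteoclasts, where it supplies protons for the acid that dissolves mineral, and Car6 is the secreted enzyme of saliva and milk. The 10 members described here were chosen by their symbols, Car2, Car3, Car4, Car5b, Car6, Car7, Car8, Car9, Car12 and Car13, out of 19938 measured genes, and Car2 and Car6 were singled out because of their levels in these same arrays. Each member was measured by 1 probe set, so its levels have no second probe set as a check.

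The levels came from mouse cells of the C57BL/6 strain, with 1 whole-transcript array for each of 4 cultures, in a study of what basic fibroblast growth factor (bFGF) does to marrow mesenchymal stem cells (MSC). The cultures were embryonic stem (ES) cells, osteoblasts released by enzyme digestion from the calvariae of newborn animals, MSC without bFGF, and MSC with bFGF at 1 ng/ml. Both MSC cultures were grown from cells flushed out of femurs and tibiae, selected only by attachment to plastic, in Coon's modified F12 medium, while osteoblasts grew in DMEM. The labels give neither the line nor the medium of the ES cells, nor the age and number of the marrow donors, and they do not say whether cells of several animals were pooled except that the last digestions of bone were. Cell type and medium cannot be told apart in the comparison of MSC with osteoblasts.

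With 1 array per culture there is no replicate spread, no test and no p-value, and every difference below compares 2 arrays. All levels are log2 values, and a difference of 1 is 2-fold. A level was called above the floor if it exceeded the median of its array's probe sets with 1 gene symbol (6.46 in ES cells, 6.46 in osteoblasts, 6.29 in MSC without bFGF and 6.32 in MSC with bFGF), and a 2-fold difference was counted if the higher of the 2 levels was above the floor. As a yardstick of noise at low levels, 1194 receptor genes of smell and pheromone sensing were used, of which 15 were above the floor in any array. The central 95% of their differences, called the receptor span here, ran from -0.97 to 0.67 between the MSC arrays. It does not measure how much separate cultures vary. Levels of different genes come from different probes and are not set against each other.

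The arrays carried their labels' defining genes unevenly. Over all measured genes 49.7% were above the floor in ES cells, 50% in osteoblasts, 49.7% in MSC without bFGF and 49.6% in MSC with bFGF. Counts of listed genes above the floor, here and below, are to be read beside these shares. Of 10 ES cell markers 7 were above the floor in ES cells and 0 in osteoblasts, with Pou5f1 at 10.63 in ES cells. Of 8 measured osteoblast markers 2 were above the floor in osteoblasts, the collagen gene Col1a1 (12.60) and Pth1r (6.75), while Alpl, Sp7 and Ibsp were under it there. Col1a1 also stood at 10.92 in ES cells, where 8 of 9 measured MSC surface markers were above the floor. In MSC 5 of these 9 surface markers were above the floor without bFGF and 7 with it, and Thy1 was under it in both. Macrophage markers were above the floor for 16 of 17 genes in osteoblasts, 14 in MSC with bFGF, 14 in ES cells and 11 in MSC without bFGF, with list medians of 11.23, 10.11, 7.50 and 7.06 and summed linear levels of 46404, 17561, 5726 and 2455. In whole cultures, fewer cells of a type and less RNA per cell cannot be told apart.

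Car6 and Car2 were high in different cultures, and the stretch before the transcription start of Car6 is shown first because this gene had the widest range of any member. The 250 bases upstream of the start are printed 5′ to 3′ for Car6 and for the other members to which the results return and for which RefSeq promoter windows of assembly GRCm38.p6 were matched. These are the membrane enzyme Car4, the mitochondrial enzyme Car5b and the hypoxia-linked enzyme Car9. Capitals mark the core letters of the hypoxia response element, ACGTG or GCGTG, on either strand.
Car6, chr4:150201136-150201385, minus strand: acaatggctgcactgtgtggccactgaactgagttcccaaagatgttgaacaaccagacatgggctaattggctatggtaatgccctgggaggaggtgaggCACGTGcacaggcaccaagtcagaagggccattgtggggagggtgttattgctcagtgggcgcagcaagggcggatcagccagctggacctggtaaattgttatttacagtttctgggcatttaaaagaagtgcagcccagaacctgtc
Car4, chr11:84957504-84957753, plus strand: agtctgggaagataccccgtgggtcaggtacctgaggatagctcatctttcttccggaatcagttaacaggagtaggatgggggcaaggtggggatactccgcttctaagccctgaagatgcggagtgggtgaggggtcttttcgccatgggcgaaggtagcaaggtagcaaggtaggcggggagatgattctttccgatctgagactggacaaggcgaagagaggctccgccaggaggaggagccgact
Car5b, chrX:164028011-164028260, minus strand: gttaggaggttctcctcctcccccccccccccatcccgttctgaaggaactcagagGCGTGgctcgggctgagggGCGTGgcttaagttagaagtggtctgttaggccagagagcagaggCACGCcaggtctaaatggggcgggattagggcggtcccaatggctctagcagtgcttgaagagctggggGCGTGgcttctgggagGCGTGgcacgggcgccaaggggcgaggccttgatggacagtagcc
Car9, chr4:43506776-43507025, plus strand: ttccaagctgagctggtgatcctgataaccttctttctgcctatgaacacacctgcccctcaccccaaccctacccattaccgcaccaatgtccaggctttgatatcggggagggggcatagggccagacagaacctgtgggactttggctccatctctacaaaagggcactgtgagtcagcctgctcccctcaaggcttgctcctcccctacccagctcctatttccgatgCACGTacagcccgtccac

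In the Car6 stretch the core lies in the palindrome CACGTG, which holds ACGTG on both strands and begins 149 bases before the start. Car6 also has 1 GCGTG in the 50 bases after the start, which are not printed. The Car9 stretch has its core 18 bases before the start. Car5b has 5 copies of GCGTG counted over both strands, and Car4 has none in its 250 bases but 1 ACGTG in the 50 bases after the start. RefSeq windows were matched for 6 of 10 members (Car4, Car5b, Car6, Car7, Car9 and Car12), with 3 windows for Car7. In windows of 300 bases, 250 before and 50 after the start, 6 of the 8 member windows, from 5 genes, held either core, as did 7 of 10 windows of the other family genes and 43.8% of all 32851 windows. The motif TGATGNAA, a composite site bound by the stress factors CHOP and ATF4, was found on either strand in 3.97% of windows and in 0 of the 8 member windows. Of the 10 windows of the other family genes 2 held it, both of Car11. Car6 had 1 matched window, so a start used by another transcript form of Car6 was not searched. A match of such short letters is a description of the sequence and not a binding site.

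Car6 was high in both MSC cultures and under the floor in both controls. Its level was 11.13 in MSC without bFGF, 10.78 in MSC with bFGF, 5.40 in osteoblasts and 4.03 in ES cells. Both MSC arrays lay far above both controls, and these values chose the gene, so they are given as a description. Compared with osteoblasts Car6 was higher by 5.73 without bFGF and 5.37 with it, and compared with ES cells by 7.10 and 6.74, the last 2 equal to 137-fold and 107-fold. Since the control levels were under the floor, the sizes of these differences depend on background. Of 11678 genes above the floor in at least 1 array, 1 had a wider range over the 4 arrays than Car6, and the median range was 0.84. The probe set does not separate transcript forms of Car6, one of which is known as an intracellular form induced through CHOP.

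Car2 was high in ES cells alone. It stood at 10.82 in ES cells, 4.86 in MSC without bFGF, 4.48 in MSC with bFGF and 4.21 in osteoblasts. The other 3 arrays were under the floor, so folds against them are set over background, here and for the members below. The level in ES cells was 97.9-fold that in osteoblasts on this basis, and 5 genes had a wider range. The steps among the other 3 arrays were 0.38 and 0.27, within the receptor span of each pair. Car2 was thus under the floor in both marrow cultures and in the bone culture.

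**Figure D1:**
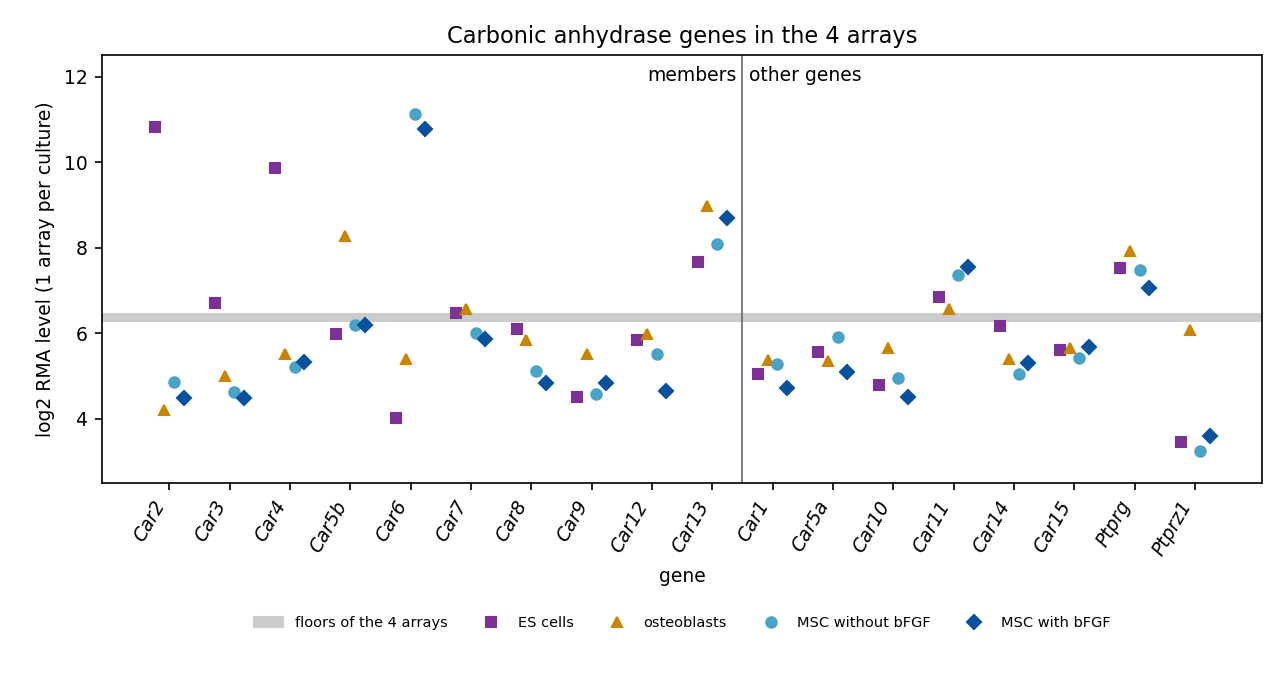
Log2 RMA level (vertical axis) of the 10 members and of 8 other genes with a carbonic anhydrase domain (horizontal axis) in the arrays of ES cells (squares), osteoblasts (triangles), MSC without bFGF (circles) and MSC with bFGF (diamonds), 1 array each, with a grey band over the floors of the arrays. Car6 is above the band only in both MSC arrays (11.13 and 10.78), Car2 only in ES cells (10.82), and Car13 in all 4 arrays.

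Among the other cytosolic enzymes, Car13 was the only member above the floor in every array. It is a widely expressed cytosolic isoform, and its level was 8.98 in osteoblasts, 8.69 in MSC with bFGF, 8.08 in MSC without bFGF and 7.67 in ES cells. Osteoblasts exceeded ES cells by 1.30 and MSC with bFGF exceeded them by 1.02, just over 2-fold. The steps between neighbours in this order were 0.29, 0.60 and 0.41, each under 2-fold. The receptor span is a yardstick for low levels and does not apply here. For differences of probe sets of the same gene the SD was 0.26, 0.19 and 0.31 in these pairs. It does not measure how much separate cultures vary. The macrophage markers were also highest in osteoblasts and next in MSC with bFGF (medians 11.23 and 10.11). For ES cells and MSC without bFGF the orders differed, with macrophage medians of 7.50 and 7.06 and Car13 at 7.67 and 8.08. The part of the macrophage markers in the order of Car13 was not tested. Car3, a cytosolic enzyme of low activity abundant in skeletal muscle and fat, stood at 6.72 in ES cells, just above the floor, and at 5.00 in osteoblasts, 4.64 in MSC without bFGF and 4.48 in MSC with bFGF. The ES cell array was the high one, by 1.72 over osteoblasts. Car7, a cytosolic enzyme known from neurons, lay close to the floor everywhere, at 6.58 in osteoblasts, 6.48 in ES cells, 6.01 in MSC without bFGF and 5.85 in MSC with bFGF, with no pair at 2-fold.

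Of the enzymes of the cell surface, only Car4 was above the floor, and only in ES cells. Car4 is held to the membrane by a lipid anchor and works outside the cell. Its level was 9.87 in ES cells, 5.52 in osteoblasts, 5.32 in MSC with bFGF and 5.21 in MSC without bFGF. The ES cell array stood 4.36 above osteoblasts, and the other 3 arrays differed among themselves by at most 0.31. Car9 and Car12 are transmembrane enzymes, and Car9 is a standard marker of hypoxia. Car9 was under the floor in all 4 arrays, with levels of 5.52 in osteoblasts, 4.84 in MSC with bFGF, 4.57 in MSC without bFGF and 4.51 in ES cells. Car12 was under it as well, at 5.98 in osteoblasts, 5.85 in ES cells, 5.51 in MSC without bFGF and 4.64 in MSC with bFGF. For members under the floor the order of the arrays has no firm meaning.

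The mitochondrial enzyme and the inactive family member completed the set. Car5b, which supplies bicarbonate inside mitochondria, was at 8.27 in osteoblasts and under the floor in the other cultures, at 6.20 in MSC with bFGF, 6.20 in MSC without bFGF and 5.98 in ES cells. Osteoblasts exceeded each MSC array by 2.07, which is 4.19-fold, and exceeded ES cells by 2.29. The osteoblast array also had the highest macrophage markers (16 of 17 above the floor), and their part in the Car5b level was not tested. Between the MSC arrays Car5b differed by 0.00, with both levels under the floor, so this difference has no firm meaning. Car8, a protein of the family that lacks catalytic activity and is known from cerebellar Purkinje cells, was under the floor in all arrays, between 6.09 in ES cells and 4.84 in MSC with bFGF.

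Between the MSC arrays 0 members were counted as higher or lower with bFGF. Car6 and Car13 passed the floor in this comparison, in which 4.09% of 10483 genes were higher by the same rule and 0.467% lower. Car6 differed by -0.36 and Car13 by 0.60. The largest difference was that of Car12, at -0.87, under the floor in both arrays. All 10 members lay within the receptor span, which as a yardstick for low levels does not apply to Car6 and Car13. The median difference of the 10 members was -0.16, beside -0.06 over all measured genes. It rests mostly on members that did not pass the floor. A count of 0 among the 2 members that passed the floor is near the background and is no result about the family.

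Against osteoblasts, 4 members passed the floor in each MSC comparison, Car5b, Car6, Car7 and Car13. With bFGF 1 was counted higher, Car6, and 1 lower, Car5b, where 7.5% of 10798 genes were higher and 9.71% lower. Without bFGF, Car6 was counted higher and Car5b lower, where 8.17% of 10973 genes were higher and 13.3% lower. The median differences of the 10 members were -0.60 and -0.52, beside -0.07 and 0.03 over all measured genes. Most of the 10 did not pass the floor, so these medians rest largely on background and show no shift of the family. The comparisons share the osteoblast array.

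Against ES cells, 6 members passed the floor in each comparison: Car2, Car3, Car4, Car6, Car7 and Car13. In MSC with bFGF 2 were higher, Car6 and Car13, and 3 lower, Car2, Car3 and Car4, with 11.3% of 10932 genes higher and 10.6% lower. In MSC without bFGF Car6 was higher and Car2, Car3 and Car4 lower, with 10.4% of 10977 genes higher and 11.8% lower; Car13 differed by 0.41. In osteoblasts minus ES cells 2 members were higher, Car5b and Car13, and 3 lower, Car2, Car3 and Car4, with 12.3% of 10927 genes higher and 8.83% lower. The member medians were -0.92, -0.40 and 0.11 in these pairs, beside 0.01, 0.08 and 0.07 over all measured genes. They include members that did not pass the floor. These comparisons share the ES cell array, and the members were chosen with these levels known. The ES cell levels were 81.0-fold those in MSC with bFGF for Car2, 23.4-fold for Car4 and 4.72-fold for Car3, in each case over an MSC level under the floor.

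The call for Car13 in MSC with bFGF minus ES cells sat at the threshold. Its difference of 1.02 was 0.90 after centring on the median and 0.83 once a loess curve was removed, so that the call was lost. For Car3 the difference of -2.24 in the same comparison was -0.98 with loess, also under 2-fold. The curve was fitted only to genes whose higher level was above the floor. At a mean level as low as that of Car3, such genes pass only with a large difference. The loess value therefore cannot judge the Car3 call. With the floor at the 75th percentile Car3 was no longer counted in any of the 3 ES cell comparisons, and at a 4-fold threshold it was lost in osteoblasts minus ES cells. In osteoblasts minus ES cells the Car13 difference stayed between 1.28 and 1.30 under these alternatives.

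**Figure D2:**
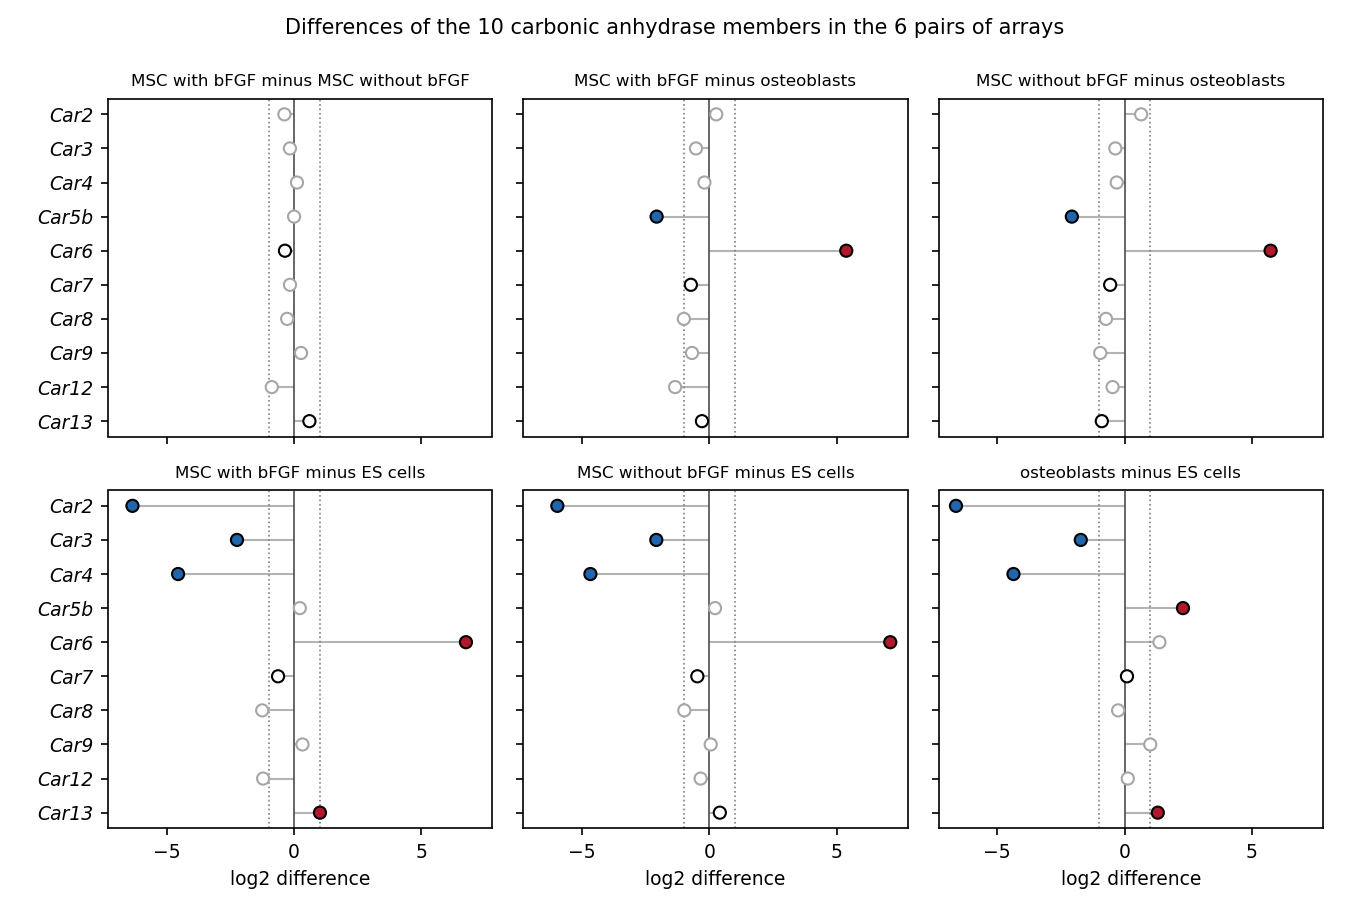
Log2 difference (horizontal axis, first array named minus the second) of the 10 members (vertical axis) in the 6 pairs of arrays, with dotted lines at 2-fold. Red and blue points were counted as higher and lower, open points were not counted, and grey outlines mark members under the floor in the higher array. Car6 reaches 7.10 in MSC without bFGF minus ES cells, Car2 reaches -6.61 in osteoblasts minus ES cells, and no point of the bFGF comparison passes 2-fold.

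Of 8 other genes with a carbonic anhydrase domain, Car11 and Ptprg were above the floor in all 4 arrays and Car1, Car5a, Car10, Car14, Car15 and Ptprz1 in none. With 2 genes above the floor, a count of 0 in each pair is near the background, where 0.467% to 13.3% of genes were counted in a direction, and is no result about these genes. Car11, a secreted member without catalytic activity, stood at 7.54 in MSC with bFGF, 7.36 in MSC without bFGF, 6.84 in ES cells and 6.58 in osteoblasts, a range of 0.97. Ptprg, a receptor phosphatase that carries a carbonic anhydrase-like domain outside the cell, stood at 7.92 in osteoblasts, 7.52 in ES cells, 7.49 in MSC without bFGF and 7.06 in MSC with bFGF. Ptprz1, its relative, was at 6.08 in osteoblasts and at 3.60 or less in the other 3 arrays, all under the floor.

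Markers of the tissues best known for these enzymes were examined beside them. For Car6, 12 salivary acinar genes were measured, and 0 were above the floor in MSC without bFGF and 1 in MSC with bFGF, the water channel Aqp5 at 6.63, which had 6.69 in osteoblasts and 6.62 in ES cells. For Car2 in ES cells, 1 of 9 measured erythroid genes was above the floor, Epor at 6.84. Of 14 osteoclast genes 8 were above it in ES cells, where Mmp9, a secreted gelatinase, stood at 8.95 and Acp5, the tartrate-resistant phosphatase, at 6.96, while the calcitonin receptor Calcr was at 5.17. Osteoclast genes were above the floor for 7 of 14 in osteoblasts, where Ctsk, the collagen-cleaving protease, reached 9.33 and Car2 was under the floor. The counts of 8 and 7 of 14 are near the share of all genes above the floor, 49.7% and 50%. They are no result about osteoclasts. The part of these markers, and of Col1a1 and the MSC surface markers in the ES cell array, in the levels of Car2, Car3 and Car4 was not tested. For Car3, skeletal muscle and fat markers were above the floor in ES cells for 3 of 12 and 0 of 9 measured genes.

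The genes whose centred levels over the 4 arrays lay nearest to those of Car2 were Bex1, at a Euclidean distance of 0.34, Cyp26a1, the enzyme that degrades retinoic acid (0.48), the pluripotency factor Pou5f1 (0.76), the Nodal inhibitor Lefty2 (0.96) and the Nodal co-receptor Tdgf1 (1.03). All 5 were high in ES cells only, with levels there between 9.33 for Lefty2 and 11.29 for Tdgf1. Nearest to Car6 were Nxf3, of the RNA export factor family (1.26), the phosphatase Ppef1 (1.51), the ATP-gated channel P2rx3 (1.53), the secreted peptide gene Ostn (1.62) and Dthd1 (1.81). All 5 were high in both MSC arrays, P2rx3 at 10.58 without bFGF and 10.33 with it, against 4.92 in osteoblasts and 5.30 in ES cells. The distances were taken over 4 arrays and 11120 candidate genes, carry no p-value, and rank genes that combine a like shape with a like size of change. With levels scaled to an SD of 1, which keeps the shape alone, 0 of the 5 genes were shared with the first set for Car2 and 0 for Car6.

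**Figure D3:**
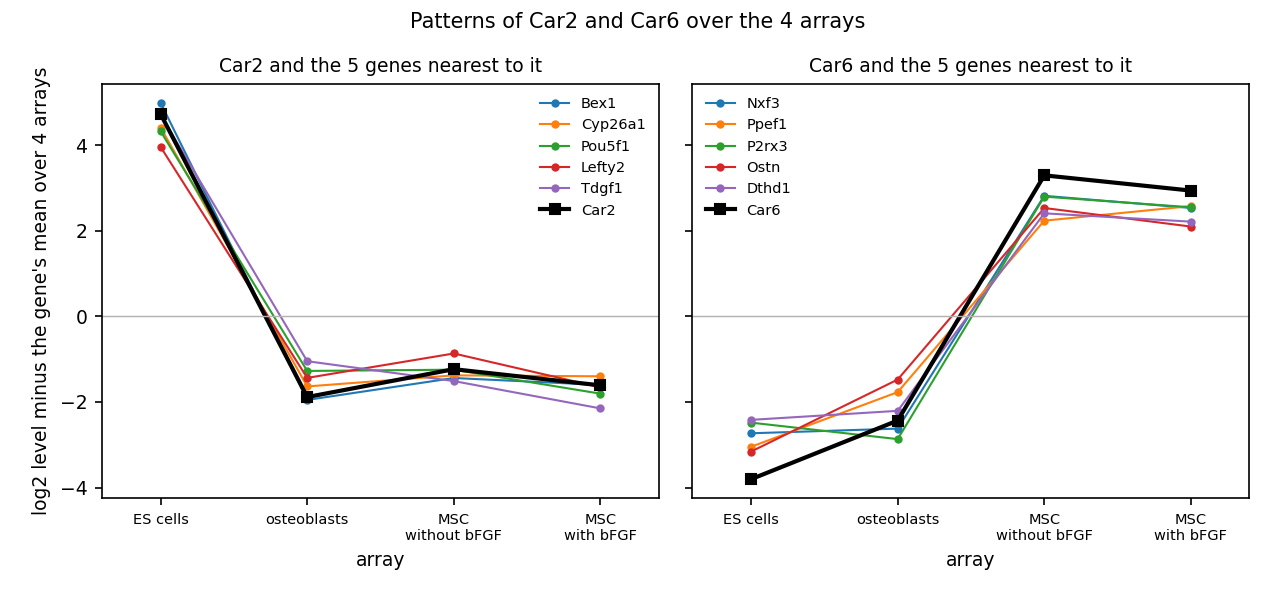
Log2 level minus the gene's own mean over the 4 arrays (vertical axis) in each array (horizontal axis) for Car2 and for Car6 (black) and for the 5 genes nearest to each by Euclidean distance (colours), with lines joining the points of a gene. Car2 and its 5 nearest genes are high in ES cells alone, and Car6 and its 5 nearest genes in both MSC arrays.

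Carbonic anhydrases work together with transporters that carry bicarbonate, protons and lactate across membranes. Among 15 measured bicarbonate transporters few were above the floor, between 2 and 4 of 15 in each array. The anion exchanger Slc4a2 had 9.07 in osteoblasts, 8.62 in ES cells, 8.45 in MSC without bFGF and 8.38 in MSC with bFGF, with no pair at 2-fold. The sodium bicarbonate cotransporter Slc4a4 was above the floor in ES cells alone, at 6.64, against 4.64 in MSC without bFGF and 4.99 with it. Of this list 3 passed the floor between the MSC arrays and 0 were counted, where 4.09% of all genes were higher and 0.467% lower. The median difference was -0.17 beside -0.06 over all measured genes.

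Proton and lactate exporters included members that differed between the MSC arrays. Of 14 measured genes 7 passed the floor, 3 were counted as higher with bFGF and 0 as lower, with a list median of 0.38. Over all genes 4.09% were higher and 0.467% lower in this pair, with a median of -0.06. Emb, a chaperone of monocarboxylate transporters, stood at 7.41 with bFGF and 4.37 without. The proton channel Hvcn1, known from phagocytes, stood at 7.32 and 5.41, and the lactate exporter Slc16a3 at 8.71 and 6.83. Macrophage markers moved the same way, with a median difference of 2.78 and 14 of 17 genes higher, and their part in these 3 differences was not tested. Slc16a1, the other main lactate carrier, stood at 10.02 without bFGF and 9.71 with it, above osteoblasts at 7.95 and below ES cells at 10.91. The endosomal sodium proton exchanger Slc9a9 was highest in osteoblasts, at 8.42, against 6.66 in MSC with bFGF, 6.51 in MSC without bFGF and 5.36 in ES cells.

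The V-ATPase, the pump that acidifies lysosomes and the space under osteoclasts, was expressed in every culture, with 17 to 19 of 24 measured subunits above the floor. In MSC minus ES cells 19 subunits passed the floor with bFGF and 18 without. Of these 6 and 7 were higher and 0 and 1 lower. The medians of the 24 subunits were 0.56 and 0.55, beside 0.01 and 0.08 over all measured genes. The shares of all genes in these pairs were 11.3% and 10.4% higher and 10.6% and 11.8% lower. Osteoblasts differed from ES cells in a like way, with 5 of 18 that passed the floor higher, 0 lower and a median of 0.62. Over all genes 12.3% were higher and 8.83% lower there, with a median of 0.07. In MSC minus osteoblasts the medians were -0.21 with bFGF and -0.11 without. Here 19 and 18 subunits passed the floor, with 1 higher in each pair and 0 and 3 lower. Over all genes 7.5% and 8.17% were higher in these pairs and 9.71% and 13.3% lower, with medians of -0.07 and 0.03. A count of 3 lower among 18 subunits that passed the floor is near the background. Atp6v1g1, a subunit of the stalk, had 11.37 and 11.30 in the MSC arrays without and with bFGF, 10.07 in osteoblasts and 9.78 in ES cells. Atp6v1h, a regulatory subunit, had 10.14 and 10.20 in MSC, 9.48 in osteoblasts and 8.88 in ES cells. Atp6v0a1 and Atp6v0e2, of the membrane sector, were lowest in MSC without bFGF, at 7.95 and 5.92, and had 8.62 and 6.65 with bFGF, 9.39 and 7.15 in osteoblasts and 8.79 and 7.29 in ES cells. Between the MSC arrays 0 of the 19 subunits that passed the floor were counted, where 4.09% of all genes were higher and 0.467% lower.

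Car9 is one of many hypoxia targets, and most of the others were above the floor. Of 19 measured targets 19 were above the floor in ES cells, 17 in osteoblasts and 16 in each MSC array. Ndrg1, a stress-induced gene, had 10.35 and 10.32 in the MSC arrays without and with bFGF, 8.56 in osteoblasts and 8.19 in ES cells. Vegfa, the angiogenic growth factor gene, had 10.06 and 10.01 in MSC against 8.97 in osteoblasts. Other targets were lower in MSC than in a control. The vasodilator peptide gene Adm had 10.15 in osteoblasts against 7.94 and 7.90 in MSC, the glycolytic regulator Pfkfb3 7.69 in both controls against 5.73 and 6.10, and the kinase Pdk1, which limits pyruvate oxidation, 8.74 in ES cells against 6.49 and 7.70. The list medians in MSC with bFGF were 0.14 against MSC without it, 0.01 against osteoblasts and -0.27 against ES cells. In MSC without bFGF they were -0.26 against osteoblasts, with 2 genes higher and 3 lower, and -0.28 against ES cells. Among 17 genes that passed the floor against osteoblasts, these counts are near the background of 8.17% higher and 13.3% lower.

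ER stress and CHOP genes were listed because one form of Car6 is a known CHOP target. Ddit3, which encodes CHOP, had levels of 9.73 in MSC without bFGF, 9.82 in MSC with bFGF, 8.02 in osteoblasts and 6.65 in ES cells. Of the 20 genes 19 passed the floor in each pair. Compared with ES cells, 15 were counted as higher in MSC with bFGF and 13 in MSC without it. In both 0 were lower, and the medians of the 20 genes were 1.78 and 1.80. Over all genes 11.3% and 10.4% were higher in these pairs and 10.6% and 11.8% lower, with medians of 0.01 and 0.08. Against osteoblasts 10 and 8 were higher and 0 and 1 lower, with medians of 0.97 and 0.81. Over all genes 7.5% and 8.17% were higher in these pairs and 9.71% and 13.3% lower, with medians of -0.07 and 0.03. Hspa5 differed from osteoblasts by 0.51 with bFGF and 0.45 without, Herpud1 by 0.93 and 0.75, and Xbp1 by 0.25 and -0.08. Each of these is under 2-fold, whereas Dnajb9 was higher by 1.64 and 1.55. Edem1 was the gene lower without bFGF, at -1.12, and differed by -0.35 with it. The counts therefore describe a mixed list and not ER stress as a whole. Trib3, a CHOP-induced pseudokinase, had 10.56 and 10.54 in the MSC arrays, 8.38 in osteoblasts and 6.70 in ES cells. Slc7a11, the cystine importer, had 10.58 and 10.63 in MSC, 7.97 in osteoblasts and 7.14 in ES cells. Atf3, a stress-induced transcription factor, had 10.17 and 10.66 in MSC, 9.55 in osteoblasts and 6.78 in ES cells. The part of these genes in the Car6 level was not tested.

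For osteoblasts against ES cells, 8 of the 19 listed genes that passed the floor were higher by the same rule. None was lower, and the list median was 0.85. Over all genes 12.3% were higher in this pair and 8.83% lower, with a median of 0.07. Car6 lay under the floor in both of these arrays, so its difference of 1.37 has no firm meaning. A link between the ER stress genes and Car6 in this pair was not tested.

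**Figure D4:**
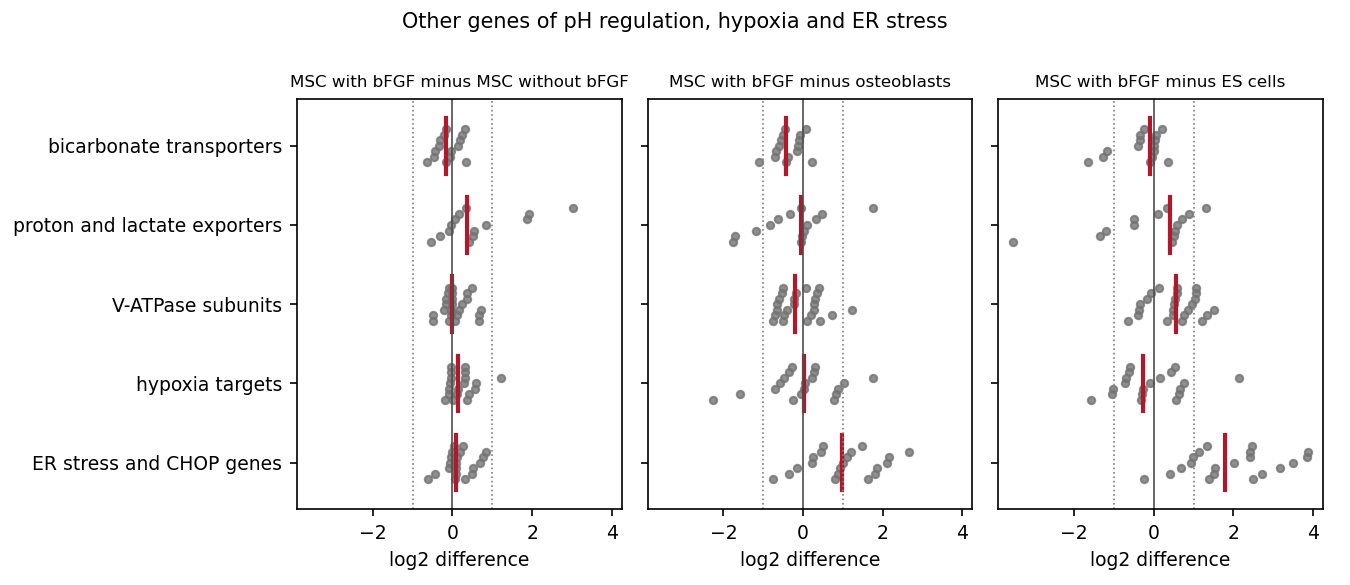
Log2 difference (horizontal axis) of single genes (grey points) of 5 lists (vertical axis) in MSC with bFGF minus MSC without bFGF, minus osteoblasts and minus ES cells, with the list median as a red bar and dotted lines at 2-fold. ER stress and CHOP genes have medians of 0.97 and 1.78 against the controls and 0.09 between the MSC arrays, and 3 proton and lactate exporters pass 2-fold between the MSC arrays.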

How the data were processed

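One table of the series held 35556 probe sets in 4 arrays. Per the submitters' processing notes the authors used Affymetrix Expression Console and RMA. The deposited values are on a log2 scale, inferred from their range of 1.40 to 14.28, and neither tool versions nor a genome build are stated in the sources used here. RMA makes the arrays' distributions alike, so a general change in RNA per cell would not show, and the number of arrays limits the precision.

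Symbols came from the platform table (21789 probe sets with 1 symbol, 1621 with several, 12146 with none). Where a gene had several probe sets, that of the highest mean was used. Alternatives were judged against the SD between probe sets of the same gene, 0.19 to 0.31 over the 6 pairs, and the procedure was tested on simulated data. Members and the 18 gene lists were chosen with earlier results of these data known. Named genes were all members, the other family genes, up to 2 genes of each pathway list each way with the largest difference, and the 5 nearest to Car2 and to Car6 without predicted or receptor genes. Slc4a2, Ddit3, Hspa5, Herpud1, Xbp1, Dnajb9, Edem1, Slc16a3 in the bFGF comparison, markers and neighbouring genes were named after their values were seen. The alternatives were the mean of probe sets (which cannot differ for the members), other floors and thresholds, centring, loess (span 0.3), repeated quantile normalization and scaled distances. Software was Python 3.11.15 with numpy 2.4.6, pandas 2.3.3, statsmodels 0.14.6 and matplotlib 3.10.9.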

Additional observations from a re-analysis of the deposited data

How the results depend on the processing

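No paired analysis was possible because each group has 1 array. All 10 members have 1 probe set, so taking the mean of probe sets could change nothing and is left out here. Of 84 counts of members under the other alternatives, 72 stayed within 1.5 times the reported count. The 12 others were as follows. At 1.5-fold, 1 member (Car13) was higher in the bFGF comparison, and each MSC array had 2 members lower than in osteoblasts. With no floor, 2 were lower in MSC with bFGF relative to osteoblasts, 5 lower in MSC with bFGF than in ES cells and 4 higher in osteoblasts than in ES cells, the added members all being under the floor. With a loess curve removed, 2 were lower in MSC without bFGF than in osteoblasts. At 4-fold, with centring, with loess and with repeated quantile normalization, 1 member (Car6) was higher in MSC with bFGF than in ES cells, and at 4-fold 1 (Car5b) was higher in osteoblasts than in ES cells. Scaled distances shared 0 of 5 genes with the reported set for Car2 and 0 for Car6. Of 180 differences of single members under centring, loess or repeated quantile normalization 148 moved by less than the SD between probe sets and 32 by more, all 32 with loess, and 0 counted ones changed sign. Loess shifted the median over all genes by 0.21 to 0.62. Among genes that passed the floor, to which the curve was fitted, the median shift lay between -0.16 and 0.01. In the MSC arrays minus ES cells, Car6 stayed between 6.63 and 7.10 and Car2 between -6.48 and -5.96. The floor limits Car8, Car9 and Car12, whose signal cannot be told from background here.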

Other observations

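Genes within 2 places of the members in RefSeq order (GRCm38.p6, protein-coding genes) were compared as values. Car13, Car1, Car3 and Car2 follow each other on chromosome 3, and in ES cells their levels were 7.67, 5.05, 6.72 and 10.82, so that Car1, which lies between Car13 and Car3, was under the floor beside neighbours above it. Gm9733, on the far side of Car2, was at 3.85 in ES cells. On chromosome 4 the neighbours of Car6 on one side, the sugar transporter genes Slc2a7 and Slc2a5, were under the floor in all 4 arrays, at 5.37 and 4.65 in MSC without bFGF, where Car6 stood at 11.13. Rere lay 2 places away on the other side of Car6, beyond Eno1, which was not measured. Rere stood at 8.53 in MSC without bFGF, 8.28 in MSC with bFGF, 7.35 in osteoblasts and 8.16 in ES cells. Siah1b, next to Car5b on chromosome X, had its highest level in ES cells, 7.21, against 5.66 in osteoblasts, where Car5b was highest. On the other side of Car5b the adjacent gene, Zrsr2, was not measured. Beyond it, Ap1s2 was highest in osteoblasts, at 8.16, against 7.77 in MSC with bFGF, 7.54 in ES cells and 6.22 in MSC without bFGF.

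Over the 300-base windows the promoters of the members differed in CpG content. The Car6 window held 4 CpG and the Car9 window 5, below the median of 7 over all windows, while Car12 held 9, Car5b 12, Car4 15 and the 3 windows of Car7 between 21 and 35.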
